A study of Mus musculus with 12 samples.

Results

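Hematopoietic cytokine receptors are the surface proteins through which blood cells sense interleukins and colony-stimulating factors. The 10 receptor chains examined here, Csf2ra, Csf2rb, Csf2rb2, Il3ra, Il4ra, Il1rl1, Il6ra, Il10ra, Il2rg and Il7r, were chosen by name from the 24813 genes of the count table, whatever their level, and they occupied 20 of its 41388 transcript rows. RNA-seq was performed on 12 libraries of cultured mouse female germline stem cells (FGSCs), 3 in each of 4 groups, to compare cells without and with excess *Stella* (gene symbol Dppa3), a maternal factor of the oocyte and early embryo. The KO group was a CRISPR knockout line of *Stella* grown from 1 cell, and KO-con was its control, for which the labels do not say what the cells received. The Over group was a line infected with a *Stella* lentivirus and selected with puromycin, and Over-con carried the empty vector. All 4 groups shared the C57BL/6 background, a passage number above 20, purification from ovary with an antibody to MVH, a feeder layer of inactivated STO fibroblasts, and a medium with leukemia inhibitory factor, EGF, bFGF and GDNF. The sources do not say that the 3 libraries of a group were separate cultures, so the p-values measure only the spread between these libraries, which may be technical.

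Most of these chains belong to the class I cytokine receptor family, which has no enzyme of its own and signals through bound JAK kinases and STAT transcription factors. Csf2ra and Il3ra are the ligand-binding chains for GM-CSF and IL-3, and both rely on a beta chain for signaling: Csf2rb is shared by GM-CSF, IL-3 and IL-5, and Csf2rb2 is a mouse beta chain for IL-3 alone. Il4ra binds IL-4 and takes part in the IL-13 receptor, Il2rg is the common gamma chain of the IL-2 family, Il7r binds IL-7, Il6ra binds IL-6 and signals through the partner chain Il6st, and Il10ra is a class II receptor for IL-10. Il1rl1, also called ST2, is a member of the IL-1 receptor family that binds IL-33, pairs with Il1rap, signals through MyD88, and is prominent on mast cells and type 2 lymphocytes.

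The extracellular part of class I receptors carries a short motif known as WSXWS, and its codons are shown here because they are the sequence feature that most of the chains share. Translation of the longest coding sequence of each chain in the mm9 annotation (GENCODE M1) found the motif in 6 of the 10 chains, each at 1 place, compared with 71 of 22594 coding genes (0.314%). The 15 codon bases are in capitals within 45 coding bases written 5′ to 3′.
Csf2rb: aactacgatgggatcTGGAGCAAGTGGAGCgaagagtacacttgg
Csf2rb2: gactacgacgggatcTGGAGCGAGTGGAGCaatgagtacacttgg
Il4ra: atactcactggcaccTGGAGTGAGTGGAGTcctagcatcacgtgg
Il2rg: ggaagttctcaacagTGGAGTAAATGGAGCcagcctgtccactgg
Il6ra: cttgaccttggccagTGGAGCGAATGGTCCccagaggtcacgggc
Il7r: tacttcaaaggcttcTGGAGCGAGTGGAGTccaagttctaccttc

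The other 4 chains, Csf2ra, Il3ra, Il10ra and Il1rl1, had no exact match in the coding sequence searched. The beta chains Csf2rb and Csf2rb2 are neighbours on chromosome 15, on opposite strands, at 78156420 to 78184277 and at 78112947 to 78136052 of mm9. Their coding sequences were 95.2% identical over 2631 aligned bases, and 40.4% of all 30-base stretches of Csf2rb also occurred in Csf2rb2. Reads of 30 bases could therefore not always be assigned to 1 of the 2 genes. The share at the length of the sequenced reads was not tested. The first 90 coding bases are shown as an example and differed at the 3 positions in capitals.
Csf2rb: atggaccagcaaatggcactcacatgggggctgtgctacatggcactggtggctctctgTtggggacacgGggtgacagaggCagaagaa
Csf2rb2: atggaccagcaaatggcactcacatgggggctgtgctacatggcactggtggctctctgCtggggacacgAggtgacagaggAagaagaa

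Library totals lay between 5611846 and 12866545 counts, so that 3 counts, the smallest amount treated as measurable, corresponded to 0.233 to 0.535 CPM, counts scaled to the size of the library. Such floors cover counting error only. Levels are CPM after TMM normalization, which scales the libraries to a common composition. A transcript was called changed at an adjusted p under 0.05 in the quasi-likelihood test of edgeR, adjusted by the Benjamini-Hochberg method across every transcript that entered the fit. Markers of several kinds of cell were checked against the label. Among the germ cell markers, Ddx4 (the MVH gene), Figla and Gfra1 were at 0 in all libraries, Dazl and Pou5f1 had 1 count each in total, and the summed level of 76.6 to 163.9 CPM came mainly from Ifitm3. Dppa3 had 0 counts in KO, KO-con and Over-con and 30.5 CPM ± 1.67 (SD, n = 3) in Over. The knockout could therefore not be checked against its control by these RNA-seq counts. The study itself reported checks of the knockout by PCR of genomic DNA, RT-PCR, Sanger sequencing and Western blot. Of these germ cell markers, Ddx4, Dazl and Pou5f1 have 2 listed transcripts and Gfra1 has 3, and rows of such genes may be at 0 through the counting (the multi-transcript genes Stat3, Ptpn11, Gab2 and Vav1 were also at 0), so that their zeros do not settle the label. That limit does not cover the germ cell markers with 1 transcript. Of these, Figla had 0 counts in total, Stra8 1, Sohlh1 7 and Prdm1 104, beside Ifitm3 and Dppa3. By contrast, the pan-hematopoietic markers summed to 1218 to 1543 CPM, led by Laptm5 and Cd53, the fibroblast markers to 878 to 1582 CPM, led by Col1a2 and Col1a1, and the macrophage markers to 189 to 279 CPM with Adgre1 and Itgam at 0. The lymphocyte markers did not exceed 0.527 CPM, and the ovarian somatic markers summed to 16.4 to 23.1 CPM with Foxl2, Fshr and Cyp19a1 at 0. Adgre1 has 3 listed transcripts, Itgam 2 and Cyp19a1 4, so their zeros may also come from the counting, while Foxl2 and Fshr have 1 each. In such bulk samples, fewer cells of a type and less RNA per cell cannot be told apart.

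Of the 10 receptor chains, 5 had enough counts to be tested, Il1rl1, Il3ra, Csf2ra, Csf2rb2 and Il4ra, each through 1 transcript. Il7r and Il10ra were at 0 in all 12 libraries, Il6ra had 1 count in total, and Csf2rb had 7 counts in total with at most 1 per library. Il2rg lay between these and the tested chains, with 48 counts in total. The KO libraries held 0, 1 and 0 of these and the KO-con libraries 0, 2 and 3. Over held 5, 18 and 1 counts, and Over-con held 11, 3 and 4. The highest KO-con library and the lowest Over-con library both had 3 counts, and with no filter on low counts the adjusted p of edgeR was 0.175 for KO-con against Over-con and 0.647 for KO against KO-con.

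**Figure D1:**
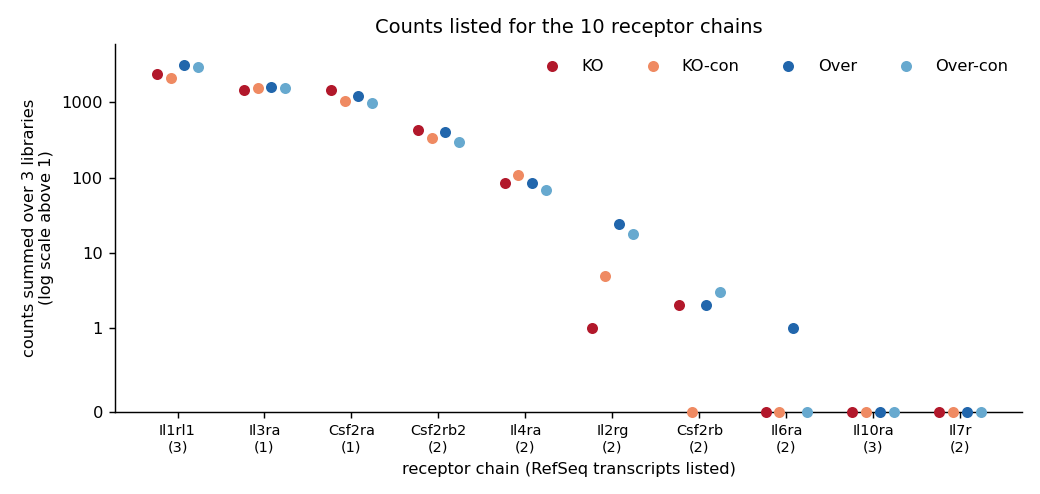
Counts summed over the 3 libraries of each group (vertical axis, logarithmic above 1 count) for the 10 receptor chains, with the number of RefSeq transcripts listed for each in brackets. Il1rl1, Il3ra and Csf2ra hold the most counts in every group, and Il7r and Il10ra lie at 0.

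A count of 0 cannot be read as absence of the RNA for every chain. Reads were counted on RefSeq transcripts, and genes with several transcripts had fewer rows that passed the filter on low counts: 25.6% of 7541 coding genes with 2 or more transcripts had a tested row, against 52.0% of 13105 with 1 transcript. How reads shared between transcripts were treated is not given in the sources used here. Both chains with 1 transcript, Csf2ra and Il3ra, were tested, and of the 8 with 2 or more, 3 were tested. Il1rl1 shows the pattern within 1 gene: its row NM_001025602 held 630 to 1243 counts per library, NM_001294171 held 0 to 4, and NM_010743, the soluble form of the receptor, held 0. The levels of Il1rl1, Csf2rb2 and Il4ra therefore stand for the counted row and not for the gene, and the 7 counts of Csf2rb, whose sequence resembles that of Csf2rb2 so closely, are uncertain in the same way.

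The GM-CSF receptor alpha chain Csf2ra (NM_009970, chromosome 19, 61300305 to 61304321 on the minus strand) was the only chain called in KO against KO-con. Its level was 42.3, 50.2 and 48.7 CPM in the KO libraries and 32.6, 39.8 and 32.6 CPM in the KO-con libraries. All 3 KO libraries lay above all 3 KO-con libraries. The mean rose from 35.0 ± 4.17 to 47.1 ± 4.18 CPM (SD, n = 3 each), a fold of 1.35 or a log2 fold change of 0.43 (SE 0.11, 95% interval 0.20 to 0.66), with an edgeR adjusted p of 0.0166. The call was lost without KO replicate 2 (adjusted p = 0.0869), without KO-con replicate 1 (adjusted p = 0.105) and without KO-con replicate 3 (adjusted p = 0.0813), while the log2 fold change stayed between 0.37 and 0.54. Against Over-con in place of KO-con, the difference was 0.30 with an adjusted p of 0.128.

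In the overexpressing line, Csf2ra read 38.5, 37.8 and 32.1 CPM, and its vector control read 37.5, 35.1 and 41.4 CPM. These libraries overlapped, and the log2 fold change was -0.09 (SE 0.10, 95% interval -0.30 to 0.13, edgeR adjusted p = 0.780). The knockout effect exceeded the overexpression effect by 0.51 on the log2 scale (SE 0.15, 95% interval 0.20 to 0.83), with an adjusted p of 0.0384 in the edgeR fit of all 12 libraries. This difference was called without KO replicate 1, KO-con replicate 2 or Over-con replicate 2, and the call was lost in the other 9 of the 12 fits that each left out 1 library, with an adjusted p of up to 0.118. In order of mean level, KO stood first, followed by Over-con, Over and KO-con, and the last 3 groups overlapped.

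The IL-3 receptor chains did not pass the test in any comparison. Il3ra (NM_008369, chromosome 14, 15179009 to 15188004 on the plus strand) had 38.8, 49.9 and 50.7 CPM in KO and 53.3, 53.7 and 53.3 CPM in KO-con. All KO libraries lay below all KO-con libraries, which differed among themselves by an SD of only 0.203 CPM. The log2 fold change was -0.19 (SE 0.10, 95% interval -0.41 to 0.02, edgeR adjusted p = 0.259). In Over, Il3ra read 49.6, 52.1 and 43.9 CPM, and in Over-con 65.1, 46.7 and 61.3 CPM. The vector control spread most widely, overlapped the Over libraries, and gave a log2 fold change of -0.27 (SE 0.11, 95% interval -0.50 to -0.04) with an unadjusted p of 0.0260 and an edgeR adjusted p of 0.308. Il3ra and Csf2ra each have 1 listed RefSeq transcript and were set side by side per length. GENCODE M1 holds 3 transcripts of Il3ra and 1 of Csf2ra, and the longest coding one gave the length, so the comparison is approximate. Per kilobase of the longest annotated transcript, Il3ra had 38.3 ± 0.146 CPM and Csf2ra 18.9 ± 2.25 CPM in KO-con, and 33.3 ± 4.78 and 25.5 ± 2.26 CPM in KO (SD, n = 3).

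The IL-3 beta chain Csf2rb2 (NM_007781) had 13.62, 13.98 and 13.98 CPM in KO and 12.4, 11.3 and 10.7 CPM in KO-con. The KO libraries all lay above the KO-con libraries, with a log2 fold change of 0.28 (SE 0.13, 95% interval -0.01 to 0.56, edgeR adjusted p = 0.212). Over gave 12.8, 11.5 and 13.4 CPM and Over-con gave 8.78, 10.2 and 14.4 CPM. The vector control spanned the whole range of Over, and the log2 fold change of 0.14 had an interval of -0.22 to 0.51 (edgeR adjusted p = 0.790).

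Il1rl1, the IL-33 receptor (chromosome 1, 40486415 to 40522260 on the plus strand), had the most counts of the 20 rows, 10696 in total, and averaged 90.5 CPM over the 12 libraries. It read 72.1, 74.4 and 82.5 CPM in KO and 66.6, 73.8 and 78.3 CPM in KO-con. The KO and KO-con libraries overlapped, with a log2 fold change of 0.07 (SE 0.09, 95% interval -0.12 to 0.26, edgeR adjusted p = 0.681). In Over the level was 93.0, 96.4 and 101.0 CPM, and in Over-con 111.0, 117.8 and 119.3 CPM. All Over libraries lay below all Over-con libraries, and the log2 fold change was -0.27 (SE 0.07, 95% interval -0.42 to -0.12) with an unadjusted p of 0.00134 and an edgeR adjusted p of 0.0676. DESeq2 gave this comparison an adjusted p of 0.0432, and without Over-con replicate 3 edgeR gave 0.0285.

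The difference that stood out for Il1rl1 was between the 2 control groups. The KO-con mean of 72.9 ± 5.89 CPM was below the Over-con mean of 116.0 ± 4.45 CPM (SD, n = 3 each), a log2 fold change of -0.67 (SE 0.09, 95% interval -0.84 to -0.49) with an edgeR adjusted p of 1.02e-05. The call remained in each of the 6 fits that left out 1 library. As a result, the direction of each line's difference depended on the control it was set against. Against Over-con, the KO libraries were lower by -0.61 on the log2 scale (adjusted p = 0.000447), and against KO-con, the Over libraries were higher by 0.40 (adjusted p = 9.87e-05). The knockout effect exceeded that of overexpression by 0.34 (SE 0.11, 95% interval 0.11 to 0.57, edgeR adjusted p = 0.0588), and it passed the threshold without KO-con replicate 3 (adjusted p = 0.0440).

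Markers of mast cells, on which Il1rl1 is prominent, also differed between the groups. The 12 listed mast cell markers summed to 1255 to 1336 CPM in KO and 463 to 542 CPM in its control, and to 743 to 777 CPM in Over and 854 to 968 CPM with the empty vector. Cpa3, a granule protease, made up most of these sums. Fcer1a, Ms4a2 and Tpsab1 were at 0 in all libraries, and Kit did not exceed 3 counts in a library. Ms4a2 has 4 listed transcripts and Kit 2, so their low counts may come from the counting, while Fcer1a and Tpsab1 have 1 each. Cpa3 differed between KO-con and Over-con in the same direction as Il1rl1 (400.5 ± 36.2 against 801.8 ± 57.2 CPM, edgeR adjusted p = 1.33e-08). It was the only mast cell marker called there, 1 of 4 tested, where 16.3% of all transcripts were called. The median log2 difference of the mast cell list was 0.05. Fcer1g, Hdc, Cma1 and Gata2, the other mast cell markers above 3 counts in a library, had higher means in KO-con than in Over-con. Cpa3 was highest in KO (1171 ± 38.3 CPM), where Il1rl1 stayed close to its KO-con level. In KO against KO-con, 3 of 5 tested mast cell markers were called, all higher. These were Cpa3 (log2 fold change 1.55, edgeR adjusted p = 2.62e-09), Cma1 (1.79, adjusted p = 0.00834) and Hdc (1.301, adjusted p = 0.0267). All 3 passed a log2 fold change of 1, and the list median was 1.301. Fcer1g and Gata2 had lower means in KO than in KO-con. In Over, Cpa3 was called lower (-0.30, edgeR adjusted p = 0.0247), 1 of 4 tested. Fibroblast markers summed to 993 to 1179 CPM in KO-con and 1403 to 1582 CPM in Over-con, and pan-hematopoietic markers to 1218 to 1332 and 1376 to 1543 CPM. Of the 6 tested pan-hematopoietic markers, Ptprc (log2 difference -0.54), Lcp1 (-0.90) and Laptm5 (-0.32) were called lower in KO-con, as Il1rl1 was. Cd53 (0.34) was called higher, and 16.3% of all transcripts were called between the controls. The macrophage markers summed to 236 to 279 CPM in KO and 189 to 212 CPM in KO-con, the comparison in which Csf2ra was called. They summed to 243 to 247 CPM in Over and 222 to 246 CPM in Over-con. Fcgr1, the macrophage marker with the highest level, was called higher in KO (log2 fold change 0.38, edgeR adjusted p = 0.00333). Cd68 was called higher there as well (0.48, edgeR adjusted p = 0.0158). These were 2 of 5 tested macrophage markers, and 11.8% of all transcripts were called in that comparison. Csf1r (1.56 and 0.974 CPM in KO and KO-con), Mertk (7.04 and 6.89) and Cd14 (4.60 and 6.53) were not called, and Cd14 had the lower mean in KO. In Over, where 1.65% of all transcripts were called, 1 of 4 tested macrophage markers was called, Cd68 (0.51, edgeR adjusted p = 0.00645). Fcgr1 averaged 185.5 CPM in Over and 189.3 CPM in Over-con, and Csf2ra was not called in Over (-0.09). The part of these marker levels in the receptor results was not tested.

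The transcripts whose log2 CPM followed Il1rl1 most closely over the 12 libraries were those of Ago4, an Argonaute protein (Pearson's r = 0.971), Adgrg3, an adhesion G protein-coupled receptor (r = 0.953), and Spint1, a protease inhibitor (r = 0.951). Ago4 averaged 85.8 CPM in KO and 85.7 CPM in its control, compared with 156.2 CPM in Over and 241.7 CPM in Over-con, a wider range than that of Il1rl1. Spint1 was at 0 CPM in KO and reached 3.16 CPM in Over-con. Among the 5 tested receptor chains themselves, r lay between -0.42 (Il1rl1 with Il4ra) and 0.47 (Csf2ra with Csf2rb2). These correlations are descriptions, since the libraries fall into 4 groups and share lines and controls.

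Il4ra (NM_001363983, chromosome 7, 132695785 to 132722986 on the plus strand) had the fewest counts of the tested chains, 14 to 39 counts per library. Its level was 2.63, 2.36 and 3.27 CPM in KO and 3.23, 3.37 and 4.71 CPM in its control. The Over libraries had 2.78, 2.41 and 2.69 CPM, and those with the empty vector 2.86, 2.46 and 2.60 CPM. KO-con was the highest group, and KO replicate 3 overlapped it. The log2 fold change was -0.43 in KO (SE 0.26, 95% interval -0.98 to 0.12, edgeR adjusted p = 0.325) and -0.03 in Over (SE 0.25, 95% interval -0.58 to 0.51, edgeR adjusted p = 0.971). All KO-con libraries lay above all Over-con libraries, with a log2 difference of 0.49 (edgeR adjusted p = 0.245). The intervals of this chain span more than those of the other 4, and a change of the size seen for Csf2ra was not detectable at this depth.

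**Figure D2:**
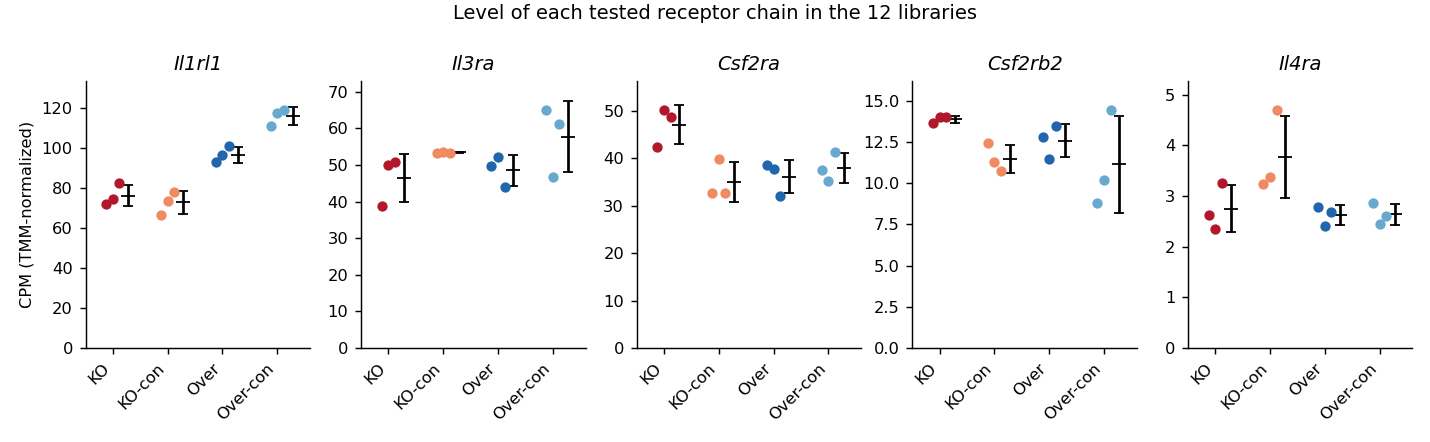
Level of the 5 tested receptor chains (CPM after TMM normalization, each panel with its own linear axis from 0) in the 12 libraries. Points are libraries, and the bars give the mean and SD of the 3 libraries of a group. Csf2ra is highest in KO, Il1rl1 is highest in Over-con and lowest in KO-con and KO, and the Over-con libraries of Il3ra and Csf2rb2 spread widely.

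Counted together, 1 of the 5 tested chains was called in KO against KO-con, where 11.8% of all 9457 transcripts tested were called. None of the 5 was called in Over against Over-con by edgeR, where the background was 1.65%, or 155 transcripts. Leaving out 1 library moved those 155 calls to between 48 and 719, the latter without Over-con replicate 3, the fit in which Il1rl1 was called. In that comparison 2 chains, Il1rl1 and Il3ra, had an unadjusted p under 0.05, and DESeq2 called 1, Il1rl1. The difference between the effects was called for 1 of 5 against 8.64% of all transcripts, and KO-con against Over-con for 1 of 5 against 16.3%. No chain reached an absolute log2 fold change of 1 in KO, in Over or between the controls. Libraries of the 2 groups did not overlap for 3 of 5 chains in KO (30.1% of all transcripts), for 1 of 5 in Over (19.1%) and for 2 of 5 between the controls (31.7%). An exact permutation test of 3 against 3 libraries cannot go below p = 0.1, and none was used. The median log2 fold change of the 5 chains was 0.07 in KO, -0.09 in Over and -0.12 between the controls, and that of all transcripts tested was 0.01, -0.0012 and -0.0046.

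**Figure D3:**
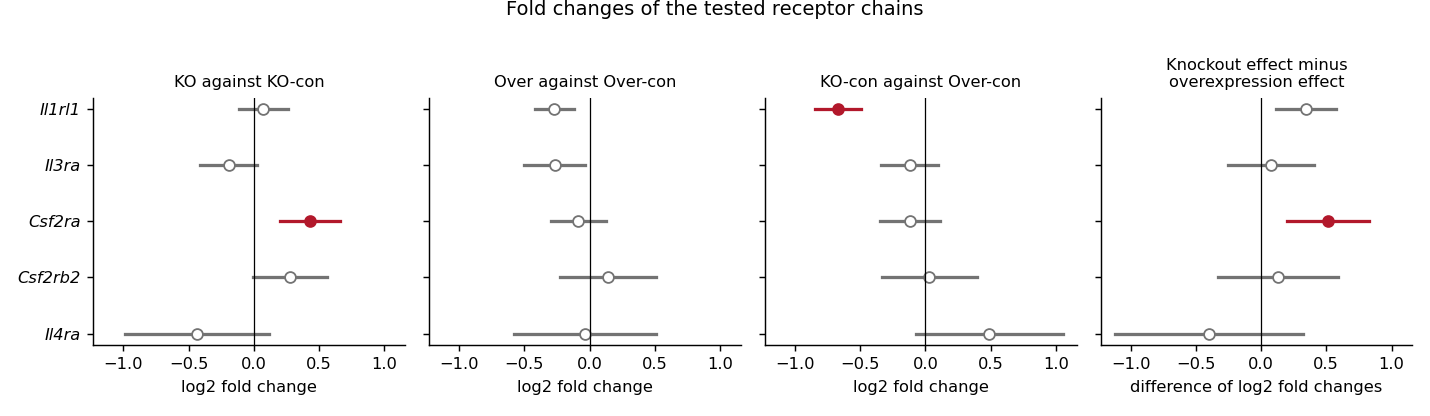
Log2 fold change of the 5 tested receptor chains in each line against its control and between the 2 control groups, and the knockout effect minus the overexpression effect (horizontal axes). Points are edgeR estimates with 95% intervals, and filled red points have an adjusted p under 0.05. The filled points are Csf2ra in KO (0.43) and in the difference (0.51), and Il1rl1 between the controls (-0.67).

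The molecules around these receptors were followed in 7 lists of pathway genes. Of the ligands, 2 of 14 were tested, and Il13, which signals through Il4ra and Il13ra1, rose in KO. Its level was 6.98, 9.26 and 13.6 CPM in KO and 4.17, 4.97 and 5.07 CPM in KO-con, a log2 fold change of 1.09 (SE 0.23, edgeR adjusted p = 0.00558). The KO libraries lay above all others, and in Over the value was -0.09 (adjusted p = 0.907).

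Among the chains that pair with the 10 receptors or share a ligand with them, 3 of 8 tested fell in KO and none rose, while in Over 1 of 7 rose and 1 fell. Over all transcripts tested, 11.8% were called in KO, 551 higher and 564 lower, and 1.65% in Over. Il2ra, the alpha chain of the IL-2 receptor, read 131.5, 110.4 and 154.0 CPM in KO and 307.0, 362.2 and 263.9 CPM in KO-con. The libraries were far apart, and the log2 fold change of -1.23 (SE 0.12, edgeR adjusted p = 5.43e-06) also passed a fold threshold of 1. It was -0.11 in Over (adjusted p = 0.541), and the difference between the effects was -1.13 (adjusted p = 8.37e-05). Il13ra1, the IL-13 receptor chain that pairs with Il4ra, fell by a smaller amount, with a log2 fold change of -0.29 in KO (adjusted p = 0.0259). Of the 6 fits without 1 library, only that without KO replicate 1 kept this call.

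Il21r, the IL-21 receptor that signals with Il2rg, moved in opposite directions in the 2 lines. It fell from 26.5 ± 1.05 to 17.8 ± 1.90 CPM in KO (SD, n = 3, log2 fold change -0.57, adjusted p = 0.00445) and rose from 13.3 ± 2.74 to 21.4 ± 0.998 CPM in Over (log2 fold change 0.65, adjusted p = 0.0246). The difference between the effects was -1.22 (SE 0.18, adjusted p = 0.000164). The controls differed as well, and both directions turned when the other control group was used, to 0.39 in KO and -0.31 in Over. The call in Over was kept without Over-con replicate 3 and lost without any of the other 5 libraries. Il2rb, the beta chain shared by IL-2 and IL-15, fell in Over from 11.6 ± 1.28 to 6.79 ± 0.995 CPM (log2 fold change -0.79, adjusted p = 0.0222), and against KO-con it was higher by 0.79. Its call was lost without Over replicate 1, Over replicate 3 or Over-con replicate 1.

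Of 13 other hematopoietic receptors tested, 4 fell and none rose in KO, and none of 12 was called in Over, where 11.8% and 1.65% of all transcripts were called. Il18rap, an accessory chain of the IL-18 receptor, fell from 775.2 ± 8.21 to 550.2 ± 62.6 CPM (log2 fold change -0.49, adjusted p = 0.000898). Ifngr2, a chain of the interferon gamma receptor, had a log2 fold change of -0.30 (adjusted p = 0.0147), and Epor, the erythropoietin receptor, one of -0.45 (adjusted p = 0.0290). With Over-con as the control, none of these 3 was called, but the values moved unequally, to -0.10 for Il18rap and 0.019 for Ifngr2, while that of Epor was -0.46 (SE 0.18, adjusted p = 0.174). The Ifngr2 call was lost without KO replicate 2, KO-con replicate 1 or KO-con replicate 3, and the Epor call was kept only without KO replicate 3. The median log2 fold change of the list was -0.21 in KO.

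Inside the cell, 1 of 5 JAKs and STATs tested was called in KO. That row belonged to Stat5b, a transcription factor downstream of most of these receptors, with 2.75, 3.67 and 2.72 CPM in KO and 2.19, 1.24 and 0.603 CPM in KO-con (log2 fold change 1.16, SE 0.36, adjusted p = 0.0485). This is 1 of 3 listed Stat5b rows and holds 242 of their 715 counts. With the rows summed per gene, the log2 fold change was 0.53 (SE 0.23) and was not called (edgeR adjusted p = 0.157). DESeq2 did not call the single row either, and its call was lost without KO replicate 2, KO-con replicate 2 or KO-con replicate 3. Of 13 negative regulators, 3 fell and none rose in KO, against the background of 11.8% called in both directions. Socs3, a feedback inhibitor of JAK signaling induced by STATs, read 155.1, 176.8 and 127.0 CPM in KO and 304.4, 273.4 and 290.3 CPM in KO-con, with a log2 fold change of -0.92 (SE 0.10, edgeR adjusted p = 1.25e-05). KO was below every other group for Socs3, and the difference between the effects was -0.95 (adjusted p = 9.83e-05).

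Cish, a feedback inhibitor induced through STAT5, had a log2 fold change of -0.81 in KO (adjusted p = 3.53e-06), from 99.7 ± 1.37 to 56.7 ± 0.924 CPM (SD, n = 3). Over-con was lower still, at 45.3 ± 4.15 CPM, and with that control the KO value turned to 0.31 (adjusted p = 0.0742). Ptpn1, a tyrosine phosphatase that acts on JAKs, had a log2 fold change of -0.37 (adjusted p = 0.00593), which was -0.03 against Over-con. None of 7 IL-33 receptor signaling genes and none of 4 receptor adaptors was called by edgeR in KO or in Over. Between the controls, 2 of 6 IL-33 receptor signaling genes were lower in KO-con, the Il1rl1 partner Il1rap (log2 difference -0.47, adjusted p = 0.00592) and the kinase Irak4 (-0.30, adjusted p = 0.0304), both in the direction of Il1rl1. These 2 were named after their values were seen. Over all transcripts 16.3% were called in that comparison. Of the 6 fits without 1 library, only that without Over-con replicate 3 kept the Irak4 call. Other lists had calls between the controls as well. Of 8 partner chains tested, a list that also holds Il1rap, 2 were higher in KO-con and 3 lower. Of 11 other hematopoietic receptors, 2 were higher and 3 lower, and of 13 negative regulators, 4 were higher and 1 lower. Of 2 ligands, 1 was higher, and none of 5 JAKs and STATs or 4 receptor adaptors was called.

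**Figure D4:**
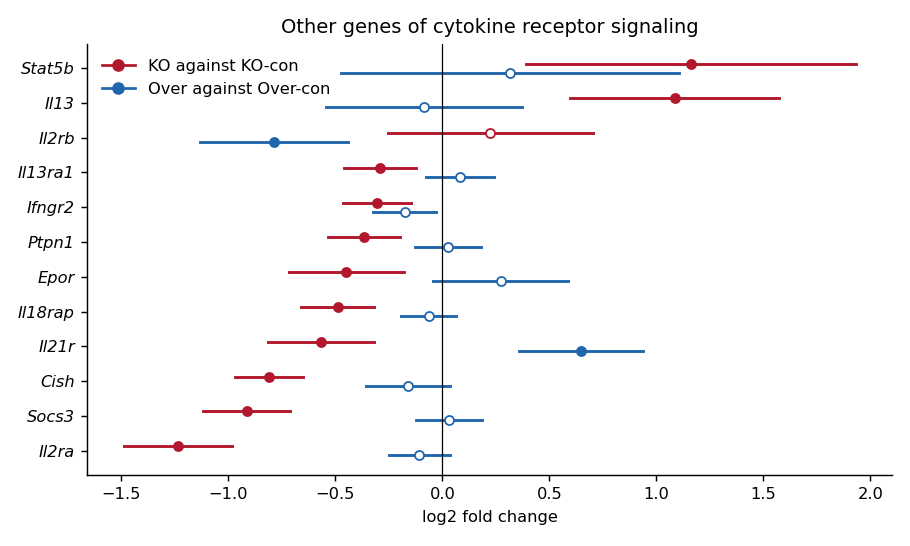
Log2 fold change (horizontal axis) of the 12 named pathway genes in KO (red) and in Over (blue), each against its own control, with 95% intervals from edgeR, where filled points have an adjusted p under 0.05. Il2ra, Socs3 and Cish lie farthest to the left in KO, and Il21r is filled on opposite sides of 0, a pattern whose directions turn with the other control group.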

How the data were processed

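RNA was extracted with Trizol and libraries were made with a stranded mRNA kit. Per the submitters' processing notes and the study's methods, reads were aligned to mm9 with HISAT2 and compared with DESeq2, and the authors deposited raw counts per RefSeq transcript in 1 table, without normalization. Strand setting, annotation release and the treatment of reads shared between transcripts are not given in the sources used here. Symbols for 41186 of 41388 transcripts were matched in a RefSeq gene table (GRCm38.p6), used for names alone. Positions and coding sequences came from mm9 with GENCODE M1. Groups were taken from the sample labels.

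Each comparison was fitted on the whole table with edgeR 4.0.16 (TMM, filterByExpr, glmQLFit, glmQLFTest), on its own 6 libraries, or on all 12 for the difference between effects. The steps were tested on simulated data. Correlations used log2 CPM with a prior count of 2. All 10 receptor chains are described. Of each pathway list, up to 3 genes with the lowest adjusted p under 0.05 in KO and up to 3 in Over were named, and of each marker list the summed level, the genes at 0 and up to 2 leading genes. The receptor chains and lists were chosen with earlier results of these data known. Alternatives were DESeq2 1.42.0, its size factors or library totals in edgeR, no filter, at least 10 counts in every library, counts summed per gene, the other control group, a block for replicate number, a joint fit of all 12 libraries, and each library left out in turn. Software was R 4.3.3 with limma 3.58.1, and Python 3.11.15 with matplotlib 3.10.9, scipy 1.17.1, numpy 2.4.6 and pandas 2.3.3. The ChIP-seq, Hi-C and DNA methylation data of the study were not analysed here.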

Additional observations from a re-analysis of the deposited data

Results flagged for a closer look

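Of the 5 tested receptor chains and the 12 named pathway genes, 11 had a knockout effect that differed from the effect of overexpression in the edgeR test of the difference itself, which used all 12 libraries and called 8.64% of all transcripts. Csf2ra was the only one of the 10 receptor chains among them, with a difference of 0.51 on the log2 scale (adjusted p = 0.0384). The other 10 were pathway genes, which had been named for a low adjusted p in KO or in Over. The test of the difference uses the same libraries, so that the selection largely fixes how many pass, and the count is a description. The knockout effect was the higher one for Il13 (difference 1.17, adjusted p = 0.0290) and Il2rb (1.01, adjusted p = 0.0207). It was the lower one for Il2ra (-1.13, adjusted p = 8.37e-05), Il21r (-1.22, adjusted p = 0.000164), Il13ra1 (-0.37, adjusted p = 0.0417), Il18rap (-0.43, adjusted p = 0.0126) and Epor (-0.72, adjusted p = 0.0376). It was also the lower one for the negative regulators Cish (-0.65, adjusted p = 0.000796), Socs3 (-0.95, adjusted p = 9.83e-05) and Ptpn1 (-0.39, adjusted p = 0.0253). When each of the 12 libraries was left out in turn, Il2ra, Il21r, Il18rap, Cish and Socs3 kept the call in all 12 fits, and the call was lost in 3 fits for Ptpn1, in 4 for Il2rb, in 8 for Il13 and Epor, and in 9 for Il13ra1 and Csf2ra. Each effect was measured against its own control group, and the cause of these differences was not tested.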

How the results depend on the processing

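The number of receptor chains called was 1 in KO, 0 in Over, 1 for the difference between effects and 1 between the controls. Leaving out 1 library at a time gave 0 to 1 in KO, 0 to 1 in Over, 0 to 1 for the difference and 1 throughout between the controls. In Over, 1 chain (Il1rl1) was called with DESeq2 and 1 with KO-con as the control. With Over-con as the control for KO the count was also 1, but the chain was Il1rl1 and not Csf2ra.

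The replicate numbers did not pair the libraries: deviations from the group means of libraries with the same number correlated at -0.15 to 0.06. With the replicate block, the count for the difference was 2, since Il1rl1 was added (0.34, adjusted p = 0.0454), and the KO calls of Il13ra1 and Epor, the Over calls of Il21r and Il2rb and the difference for Il13ra1 were lost. Il13ra1 was also lost with library totals, in KO and in the difference, and Epor in KO with all 12 libraries in 1 fit. The block moved all calls from 155 to 67 transcripts in Over.

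The other control group turned the direction of several values. With Over-con, KO values became -0.61 for Il1rl1, 0.047 for Il4ra, 0.39 for Il21r, 0.019 for Ifngr2, 0.31 for Cish and -1.36 for Il2rb. With KO-con, Over values became 0.40 for Il1rl1, 0.036 for Csf2ra, -0.31 for Il21r, -0.14 for Socs3, -0.32 for Ptpn1 and 0.79 for Il2rb, and all calls rose from 155 to 2026. Library totals turned Csf2rb2 between the controls to -0.020. Leaving out 1 library gave ranges that crossed 0, none called, for Csf2rb2 in Over (-0.025 to 0.41), between the controls (-0.14 to 0.29) and in the difference (-0.14 to 0.30), for Il3ra in the difference (-0.018 to 0.19), and in Over for Il4ra (-0.079 to 0.037), Socs3 (-0.0047 to 0.11) and Ptpn1 (-0.021 to 0.064). With no filter, all calls in Over numbered 302. Leaving out 1 library gave 48 to 719 calls over all transcripts in Over, 613 to 1271 in KO, 536 to 1126 for the difference and 882 to 1988 between the controls. Summing counts per gene ended the Stat5b call in KO, no filter ended the Irak4 call between the controls, and Stat5b had no value in KO or in the difference with at least 10 counts in every library. The cause of these changes was not tested. Over all alternatives and single genes, 803 values kept their direction and side of the threshold, 89 lost the call, 11 gained it and 26 reversed.

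With 3 libraries a group, 1 knockout clone and controls that differ from each other, a line's difference from its control cannot be told apart from a difference between cultures. Depth limits Il4ra, and Il2rg, Csf2rb, Il6ra, Il7r and Il10ra had too few counts for a test.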
